A study of Homo sapiens with 2 samples.

Results

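AP-1 is a family of dimeric transcription factors, and its core subunits were followed here as 8 genes: JUN, JUNB and JUND of the JUN family, FOS, FOSB, FOSL1 and FOSL2 of the FOS family, and ATF3, which pairs with JUN proteins. They were chosen by family, with the intensities of these same 2 arrays already known (JUN and FOSL1 higher, FOSL2 lower in the array labelled Sox2), so their values are descriptions and support no general statement. Every probe set that the platform annotation gives to only 1 of these genes was taken, which found 20 probe sets among the 41091 that name exactly 1 gene, or 8 of 19775 genes. No probe set named a member together with another gene. The study used MKN28, an established human gastric adenocarcinoma line listed as a misidentified derivative of the gastric line MKN74. It compared 1 array labelled Sox2 (genotype Sox2 overexpression, cells infected with a Sox2 lentivirus and selected with puromycin) with 1 array labelled control (MKN28-NC), and the labels do not say what the control cells received. There were 2 arrays and no replicates, so no test between the conditions is possible and no difference below has a replicate error.

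AP-1 proteins hold a basic DNA-binding region and a leucine zipper through which they pair. JUN proteins pair with each other or with FOS proteins, while FOS proteins need a partner. The dimers bind a short element, searched here in the wider form TGANTCA, and the related CRE, above all with ATF partners. FOS, FOSB, JUN, JUNB and ATF3 are known as genes that growth factors or stress switch on within minutes through MAP kinases, JUND is made more steadily, and FOSL1 and FOSL2 usually follow later. In epithelial tumours AP-1 is known for its part in proliferation and invasion.

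Values are probe set intensities on the deposited linear scale, and each difference is log2 of the intensity in the Sox2 array minus log2 of that in the control array. A probe set was past the filter when it read at least 34.25, the median of all values, on 1 array or both. One that passed on 1 array alone had to be higher there, so its direction adds no support. The median log2 difference was -0.0032 over the 14253 genes past the filter. The only spread available is between probe sets of 1 gene on the same RNA: in 3471 genes that had 2 such probe sets, the robust SD of 1 probe set's log2 difference was 0.28. It holds no variation between cultures or arrays. Fewer cells of a type and less RNA per cell cannot be told apart in such bulk samples.

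The target gene did not separate the arrays clearly. The brightest SOX2 probe set read 172 in the Sox2 array and 123 in the control array (log2 difference 0.49), and the other one past the filter read 38.4 in Sox2 and 39.1 in control. The names Sox2 array and control array therefore stand for the labels alone (Sox2 and control beside a value), and every direction rests on them. Most genes passed the filter, 14253 of 19775, so the counts of markers that passed identify no cell type. Of the gastric and other epithelial markers, 17 of 20 passed the filter, with summed intensities of 1235 in Sox2 and 1271 in control. EPCAM, a defining epithelial surface protein, read 4.96 in Sox2 and 6.32 in control. Of the fibroblast and mesenchymal markers 13 of 15 passed, with sums of 8146 in Sox2 and 6640 in control, of which VIM made up 5833 in Sox2 and 4288 in control. Of the 13 leukocyte and endothelial markers with a probe set 9 passed, with sums of 713 in Sox2 and 688 in control, and every probe set of PTPRC, the common leukocyte antigen, was under the filter. By the brightest probe set, 6 of the 15 mesenchymal markers lay above the 95th percentile of the level of all probe sets. Of the 20 epithelial markers 0 did, and of the 13 leukocyte and endothelial markers 0 did. These levels leaned away from an epithelial profile, though the line is named a gastric adenocarcinoma, and the reason was not tested. Of all listed markers past the filter, PDGFRA, a fibroblast receptor, alone reached 2-fold, at 82.3 in Sox2 and 173 in control (log2 difference -1.07). Another PDGFRA probe set, the brighter on the Sox2 array, read 88.7 in Sox2 and 85.0 in control (0.06). The largest differences in the other marker lists were those of GKN1, a stomach surface protein, at 34.9 in Sox2 and 24.7 in control, and KDR, an endothelial receptor, at 36.45 in Sox2 and 49.99 in control. GKN1 passed the filter narrowly and only through the Sox2 array, so it had to be higher there. The lowest deposited intensity was 1, so no marker could read 0 and a value above 0 does not show that a marker was expressed. The part of these levels in the AP-1 values was not tested.

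The AP-1 genes differed from each other in direction. By the brightest probe set of each gene, JUN and FOSL1 were higher in the Sox2 array by 2-fold or more. FOSL2 was lower by as much, and the other 4 of the 7 genes past the filter differed by less. The FOSL2 probe set led its gene only through the control array, so its choice was not free of its direction. Over all genes past the filter, 2.05% were at least 2-fold higher and 0.645% at least 2-fold lower, and nothing is read from the members' count beside these shares, since the members were listed with these values known. Of the 7 members, 4 lay above 0 and 3 below, with a median log2 difference of 0.16. Among probe sets, 9 of the 15 past the filter lay above 0 and 6 below, 2 were at least 2-fold higher and 1 at least 2-fold lower. Over all 22938 probe sets of 1 gene past the filter, 1.97% and 0.523% were so.

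**Figure D1:**
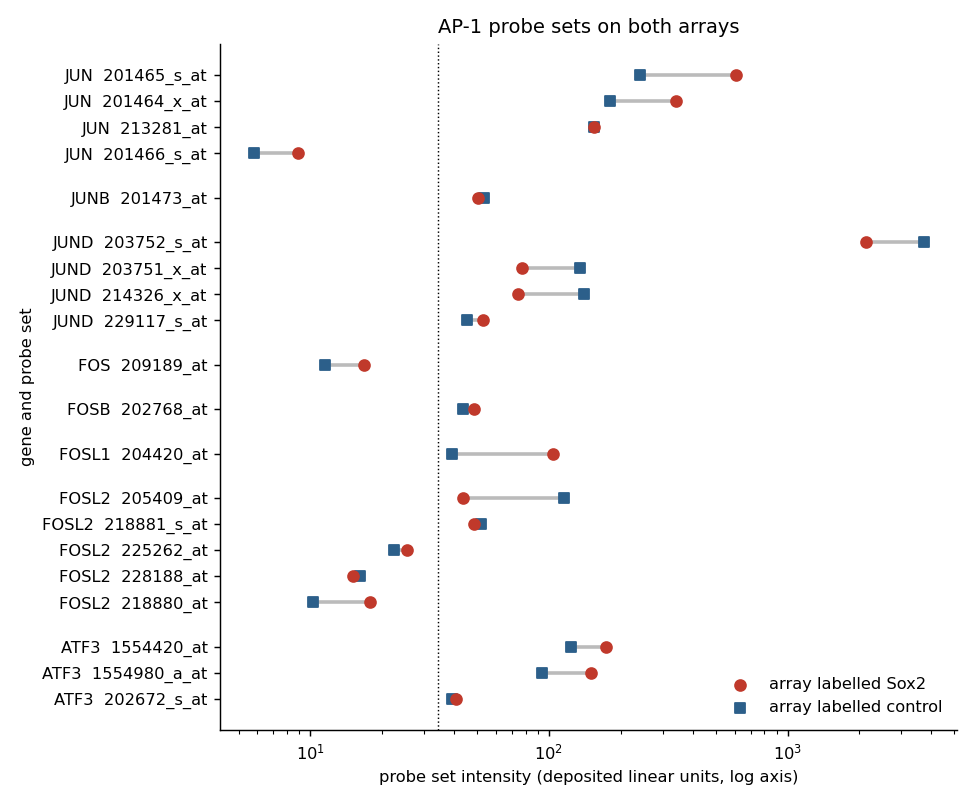
Intensity of each of the 20 AP-1 probe sets (log axis, deposited linear units), with a red circle for the Sox2 array and a blue square for the control array. The dotted line is the filter at 34.25. The widest gaps are those of the brightest JUN and FOSL2 probe sets and of FOSL1, at 606 in Sox2 and 240 in control, 43.8 in Sox2 and 116 in control, and 104 in Sox2 and 39.2 in control.

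The upstream sequences of JUN, JUND and ATF3 are shown because these genes had several probe sets past the filter, most of them on 1 side, and because each window holds an 8-letter element of the kind that ATF and JUN proteins bind. They are RefSeq's, on GRCh38.p14, and run 5′ to 3′ on the gene's strand over the 250 bases before its annotated start. Capitals mark matches to TGACNTCA on either strand. The JUN window is chr1:58784048-58784297 on the minus strand, the JUND window chr19:18281623-18281872 on the minus strand and the ATF3 window chr1:212565157-212565406 on the plus strand.
JUN: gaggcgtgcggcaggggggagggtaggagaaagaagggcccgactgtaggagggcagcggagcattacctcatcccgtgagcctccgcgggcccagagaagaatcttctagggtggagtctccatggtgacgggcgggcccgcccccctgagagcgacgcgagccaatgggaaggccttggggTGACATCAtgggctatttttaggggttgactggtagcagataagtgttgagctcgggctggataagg
JUND: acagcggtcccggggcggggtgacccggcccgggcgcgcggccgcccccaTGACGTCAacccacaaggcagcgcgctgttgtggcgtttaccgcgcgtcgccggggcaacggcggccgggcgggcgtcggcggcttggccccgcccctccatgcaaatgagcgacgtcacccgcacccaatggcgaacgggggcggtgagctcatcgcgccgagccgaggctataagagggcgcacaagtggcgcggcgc
ATF3: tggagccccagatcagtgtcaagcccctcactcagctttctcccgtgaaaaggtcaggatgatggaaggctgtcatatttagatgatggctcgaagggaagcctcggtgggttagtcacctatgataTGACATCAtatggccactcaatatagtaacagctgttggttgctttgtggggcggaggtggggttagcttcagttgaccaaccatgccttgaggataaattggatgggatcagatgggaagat

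The JUN match, TGACATCA, lies 67 to 60 bases before the start. A site of this kind in the JUN promoter is known to be bound by JUN and ATF2. The JUND match is the CRE itself, TGACGTCA, 200 to 193 bases before the start, and the ATF3 match is TGACATCA, 123 to 116 bases before it. ATF3 has another annotated start, whose window holds neither this element nor TGANTCA. Windows were found for 7 of the 8 genes, and those of JUNB, FOS, FOSB and FOSL2 hold no match to TGACNTCA or TGANTCA. Of 35116 windows of the same length, 6.87% hold TGACNTCA, 1.65% hold TGACGTCA (each such site is also a TGACNTCA match) and 6.57% hold TGANTCA. The members with an 8-letter element lie on both sides of 0, JUN and ATF3 above and JUND below. A match is a description of letters and not of binding.

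JUN, the founding subunit and a main target of the JNK kinases, was higher by 2 of its 3 probe sets past the filter and level by the third. Its brightest probe set read 606 in the Sox2 array and 240 in the control array, 2.53-fold higher, a log2 difference of 1.34. The next read 339 in Sox2 and 180 in control (0.92). A further one read 155 in Sox2 and 154 in control (0.0073), and the dimmest, under the filter, read 8.90 in Sox2 and 5.79 in control (0.62). The arrays were thus far apart on the brightest JUN probe set and level on another. The 3 probe sets past the filter spanned 1.33 on the log2 scale, more than 96.8% of the 1294 genes with as many, for which the median span was 0.43. The mean over all 4 was 0.72 (SD between probe sets 0.56). The probe set on which the arrays were level is the only JUN probe set whose name ends in _at alone. The others end in _s_at, which marks probes shared by several transcripts, or _x_at, which marks probes that may also bind other sequences, so the JUN value is uncertain, and the part of cross-hybridisation in it was not tested. JUN and JUND were among the brightest 1426 genes past the filter, which also varied more: 10.8% of them were at least 2-fold higher and 2.59% at least 2-fold lower, with a robust SD of 0.59.

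JUND, the subunit usually present in resting cells, was lower by 3 of its 4 probe sets, and these were close together. They read 2126 in the Sox2 array and 3728 in the control array, 77.2 in Sox2 and 135 in control, and 73.8 in Sox2 and 140 in control. Their log2 differences were -0.81, -0.80 and -0.92, the first of them 1.75-fold lower. The remaining probe set read 52.8 in Sox2 and 45.5 in control, a difference of 0.22 in the other direction. None of the 4 reached 2-fold. All passed the filter, and all end in _s_at or _x_at, so none is free of possible cross-hybridisation. Their mean was -0.58 (SD between probe sets 0.53), and their span of 1.14 was larger than that of 89.3% of the 469 genes with as many past the filter. Of those genes, 21.3% had all 4 probe sets on 1 side, and JUND did not. JUN and JUND, paralogues with similar zippers, therefore lay on opposite sides of 0 by their brightest probe sets.

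JUNB, which often restrains JUN-driven transcription, has 1 probe set. It read 50.4 in the Sox2 array and 53.6 in the control array, a log2 difference of -0.09, less than the SD of 0.28 between probe sets.

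**Figure D2:**
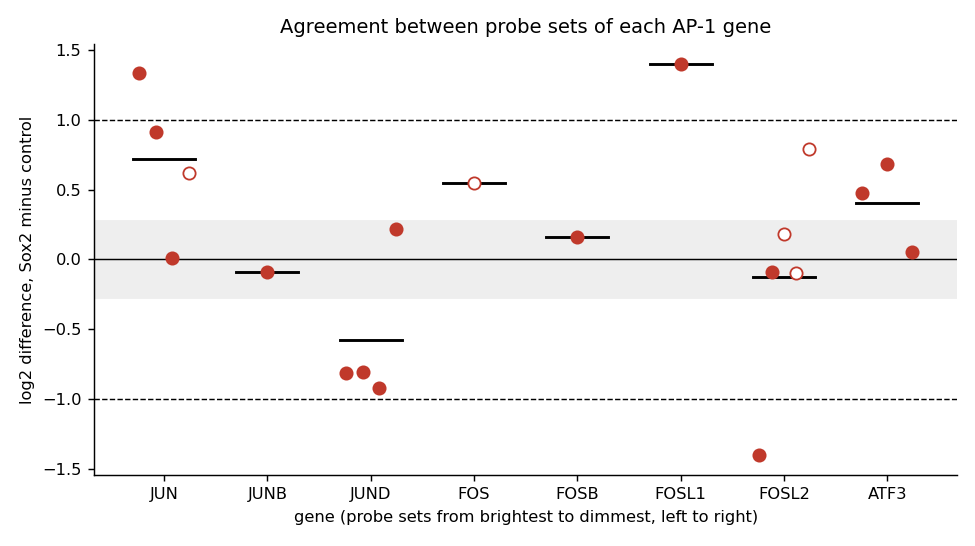
Log2 difference (Sox2 minus control) of every AP-1 probe set by gene, ordered from the brightest to the dimmest within a gene, with filled points past the filter and open points under it. Black bars are means over all probe sets of a gene, the grey band is 1 technical SD (0.28) on each side of 0 and dashed lines mark 2-fold. JUN and ATF3 lie on 1 side throughout, while FOSL2 spreads from -1.40 to 0.79.

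FOSL1, also called FRA1, a FOS protein without the strong activating region of FOS and often abundant in invasive epithelial tumours, had the largest upward difference among the 8 genes. Its only probe set read 104 in the Sox2 array and 39.2 in the control array, 2.65-fold higher (log2 difference 1.40). The control value lay just over the filter of 34.25. With a single probe set the reading has no second measurement behind it. Among all 192 genes counted as at least 2-fold higher that had further probe sets past the filter, 75.7% of the 374 further probe sets were also above 0, but 22.2% were themselves at least 2-fold higher.

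FOSL2, also called FRA2 and the closest relative of FOSL1, was read in conflicting ways by its 5 probe sets. The brightest read 43.8 in the Sox2 array and 116 in the control array, 2.64-fold lower (log2 difference -1.40). The other one past the filter read 48.6 in Sox2 and 51.8 in control (-0.09). On the Sox2 array this other probe set was the brighter, so the first led only through its control value. The 3 under the filter read 25.5 in Sox2 and 22.4 in control (0.18), 15.1 in Sox2 and 16.2 in control (-0.09), and 17.8 in Sox2 and 10.3 in control (0.79). A difference of 2-fold was thus seen by 1 probe set of 5. The mean over all 5 was -0.12 with an SD between probe sets of 0.80, which is larger than the mean. The span of 2.19 exceeded that of 98.6% of the 706 genes with 5 probe sets, whose median span was 0.81. The 2 past the filter were both below 0, with a mean of -0.75. Their span of 1.31 exceeded that of 98.6% of the 3471 genes with as many past the filter. Among the 40 genes counted as at least 2-fold lower with further probe sets past the filter, 58.5% of the 65 further probe sets were below 0 and 3.08% at least 2-fold lower, so a second reading seldom showed a downward difference of that size.

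FOS and FOSB, the strongly activating members that serum induces, were read at low intensity by 1 probe set each. FOS read 16.8 in the Sox2 array and 11.5 in the control array (log2 difference 0.55). Both values lie under the filter, so FOS was not counted. FOSB read 48.7 in Sox2 and 43.6 in control (0.16), less than the SD of 0.28. A missing 2-fold difference at these intensities does not show that FOS or FOSB was unchanged.

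ATF3, a stress-induced protein that represses as a homodimer and can activate with JUN, was higher by all 3 of its probe sets, none of which reached 2-fold on the values as deposited. They read 173 in the Sox2 array and 124 in the control array (log2 difference 0.48), 150 in Sox2 and 93.1 in control (0.69), and 40.6 in Sox2 and 39.2 in control (0.05). The mean was 0.41 with an SD between probe sets of 0.32. The span of 0.64 was larger than that of 73.0% of the 1294 genes with as many past the filter. Of those 1294 genes, 31.8% had all of them on 1 side, as JUN and ATF3 did by their 3 past the filter.

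The choice of probe set moved JUN and FOSL2 most. With the mean of its probe sets taken for every gene, FOSL1 was the only member at 2-fold in either direction. It has 1 probe set, so the averaging could not move it. JUN was 0.0073 when probe sets ending in _s_at or _x_at were left out. The scaling mattered too. The poly-A spike-ins are bacterial RNAs put into each sample ahead of labelling. Their 24 probe sets had a median log2 difference of -0.75, and every one was below 0. Scaling on them shifts every gene upward by 0.75, which puts JUNB at 0.66, JUND at -0.060 and FOSL2 at -0.65 and leaves no member at least 2-fold lower. It puts ATF3 at 1.23, so that 3 members (JUN, FOSL1 and ATF3) are at least 2-fold higher. In that scaling 20.1% of the genes past the filter were at least 2-fold higher.

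**Figure D3:**
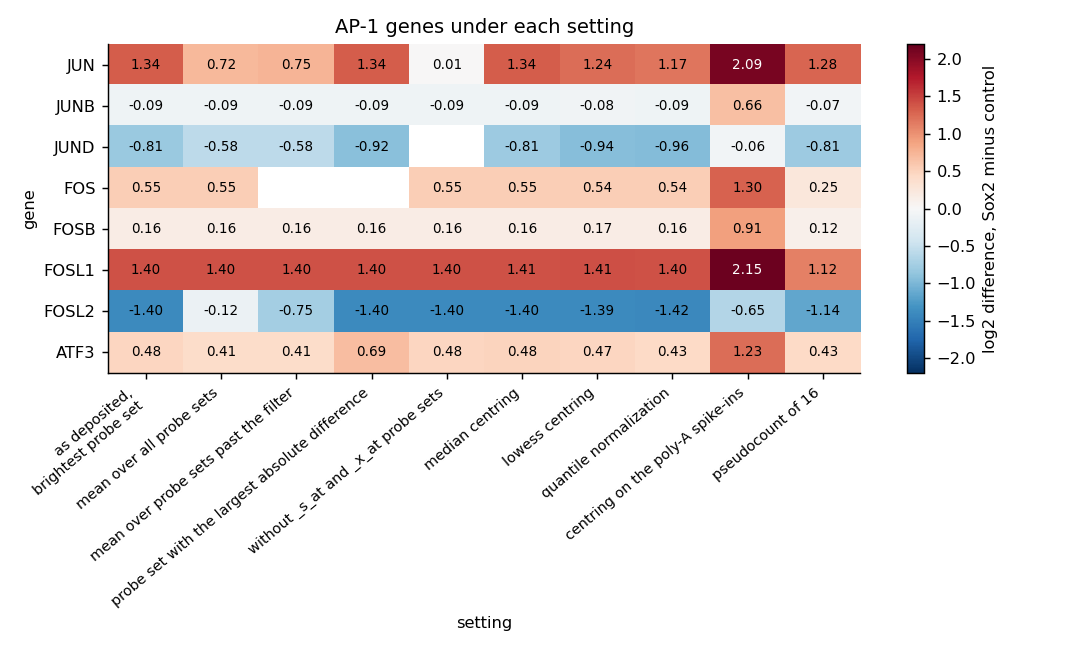
Log2 difference (Sox2 minus control) of each AP-1 gene (down) under each setting (across), coloured from blue for lower to red for higher in the Sox2 array. Empty cells are settings that leave no probe set for FOS or JUND. FOSL1 stays between 1.12 and 2.15, JUN ranges from 0.0073 to 2.09 and FOSL2 from -1.42 to -0.12.

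Of the 24 other bZIP genes listed, whose proteins share partners or sites with AP-1, 17 passed the filter and none reached 2-fold in either direction by its brightest probe set. Over all genes 2.05% were so much higher and 0.645% lower, so a count of 0 among 17 lies near the background. Of the 17, 9 lay above 0 and 8 below, and the median log2 difference was 0.03, where that of all genes was -0.0032. The largest difference was that of CEBPB, a bZIP factor of inflammation and differentiation, at 182 in the Sox2 array and 311 in the control array (-0.77). CREB1, the main CRE-binding factor, read 97.6 in Sox2 and 97.9 in control by its brightest probe set but 89.8 in Sox2 and 39.2 in control (1.20) by the next, and its others past the filter gave 0.30 and 0.68. The reading of 0.68 passed the filter only through the Sox2 array, so it had to be above 0. BATF, which pairs with JUN proteins in lymphocytes, read 307 in Sox2 and 298 in control, and ATF2, the JUN partner at CRE-like sites, read 69.0 in Sox2 and 62.9 in control.

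Upstream of AP-1, single kinases were higher. Of 19 MAP kinase cascade genes past the filter, 2 were at least 2-fold higher, none lower and 17 under 2-fold, against 2.05% higher and 0.645% lower over all genes, with a median log2 difference of 0.01. MAP2K4, which phosphorylates the JNK kinases that act on JUN, read 684 in the Sox2 array and 272 in the control array (2.51-fold, 1.33), and its other probe set read 57.5 in Sox2 and 28.5 in control (1.01). That one passed the filter only through the Sox2 array, so it had to be higher there. MAP2K4 lies among the brightest 1426 genes, of which 10.8% were at least 2-fold higher. MAP3K7, also called TAK1, read 174 in Sox2 and 65.3 in control (2.66-fold, 1.41) by its brightest probe set but 40.6 in Sox2 and 33.95 in control (0.26) and 26.1 in Sox2 and 37.8 in control (-0.53) by others past the filter. The reading of 0.26 passed only through the Sox2 array and that of -0.53 only through the control array, so the direction of each was fixed by the filter. The JNK genes themselves were read differently by different probe sets. By the brightest, MAPK8 read 54.2 in Sox2 and 59.3 in control (-0.13), MAPK9 79.9 in Sox2 and 74.3 in control (0.10), and MAPK10 102 in Sox2 and 98.1 in control (0.06). By others past the filter, MAPK8 read 51.1 in Sox2 and 48.1 in control (0.09) and 43.2 in Sox2 and 29.03 in control (0.57), MAPK9 53.3 in Sox2 and 34.8 in control (0.62) and MAPK10 47.2 in Sox2 and 29.5 in control (0.68). The readings of 0.57 and 0.68 passed the filter only through the Sox2 array. Of 13 feedback inhibitors of MAP kinases past the filter, none reached 2-fold, with DUSP6, the ERK phosphatase, the largest at 50.2 in Sox2 and 29.0 in control (0.79) and a median of 0.05. DUSP6 passed the filter only through the Sox2 array, so it had to be higher there.

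Factors known from the FOS and JUN promoters were split. All 13 passed the filter, and 1 was at least 2-fold higher, none lower and 12 under 2-fold, against 2.05% higher and 0.645% lower over all genes. The median was -0.06 by the brightest probe sets and 0.06 by the means of the probe sets past the filter. SP1, a general activator of GC-rich promoters, read 56.5 in the Sox2 array and 27.0 in the control array (2.09-fold, 1.06), and a second probe set gave 0.89. Both SP1 probe sets passed the filter only through the Sox2 array, so they had to be higher there. MEF2A, whose family is known to bind the JUN promoter, read 550 in Sox2 and 277 in control (0.99) by its brightest probe set, 434 in Sox2 and 164 in control (1.40) and 141 in Sox2 and 70.4 in control, also 2-fold, by others, and 82.4 in Sox2 and 86.7 in control (-0.07) by the last past the filter. TCF7L2, the Wnt pathway factor, read 106 in Sox2 and 57.2 in control (0.88) by its brightest, and the 5 others past the filter ran from -0.31 to 1.45. The TCF7L2 reading of 1.45 and another of 0.65 passed only through the Sox2 array, so they had to be above 0. SRF, which binds the serum response element of the FOS promoter, read 85.8 in Sox2 and 120 in control (-0.49) and, by its other probe set, 53.0 in Sox2 and 69.9 in control (-0.40). ELK1, its ERK-activated partner, read 137 in Sox2 and 143 in control (-0.06) and 82.7 in Sox2 and 76.6 in control (0.11).

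Among 12 genes past the filter whose proteins modify, degrade or bind AP-1, 2 were at least 2-fold higher, none lower and 10 under 2-fold, against 2.05% higher and 0.645% lower over all genes, and the median was 0.39. PIAS1, a SUMO ligase, read 110 in the Sox2 array and 40.7 in the control array (2.70-fold, 1.43), but 2 further probe sets past the filter gave 0.03 and 0.38. Both of these passed only through the Sox2 array, so they had to be above 0. COP1, a ubiquitin ligase known to mark JUN for degradation, read 421 in Sox2 and 175 in control (2.41-fold, 1.27) and 379 in Sox2 and 191 in control (0.99) by the second probe set. COP1 lies among the brightest 1426 genes, of which 10.8% were at least 2-fold higher. FBXW7, another ligase of JUN, read 200.2 in Sox2 and 148 in control (0.43) by its brightest probe set and 194 in Sox2 and 88.1 in control (1.14) by the next. COP1 thus lay on the same side as JUN by both of its probe sets.

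Of 35 genes past the filter that are often described as AP-1 targets, none reached 2-fold in either direction by its brightest probe set, against 2.05% higher and 0.645% lower over all genes, so this count too lies near the background. Of the 35, 14 lay above 0 and 21 below, with a median log2 difference of -0.03 and a range from -0.64 to 0.73. The largest was ODC1, the entry enzyme of polyamine synthesis, at 673 in the Sox2 array and 405 in the control array. The collagenase MMP1 read 30.7 in Sox2 and 35.7 in control, the gelatinase MMP9 71.7 in Sox2 and 83.2 in control, the cyclin CCND1 60.3 in Sox2 and 53.9 in control, and the chemokine CXCL8 49.7 in Sox2 and 54.0 in control. These 4 targets have 1 probe set past the filter each and differed by less than the technical SD of 0.28. MMP1 passed only through the control array. The urokinase receptor PLAUR read 62.5 in Sox2 and 64.0 in control (-0.03), with -0.01 and -0.36 by others past the filter. The reading of -0.36 passed only through the control array, so it had to be below 0. The adhesion receptor CD44 read 65.7 in Sox2 and 73.0 in control (-0.15), and 6 further ones past the filter ran from -0.38 to 0.90. The reading of 0.90 passed only through the Sox2 array, as did another of 0.60, so both had to be above 0.

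**Figure D4:**
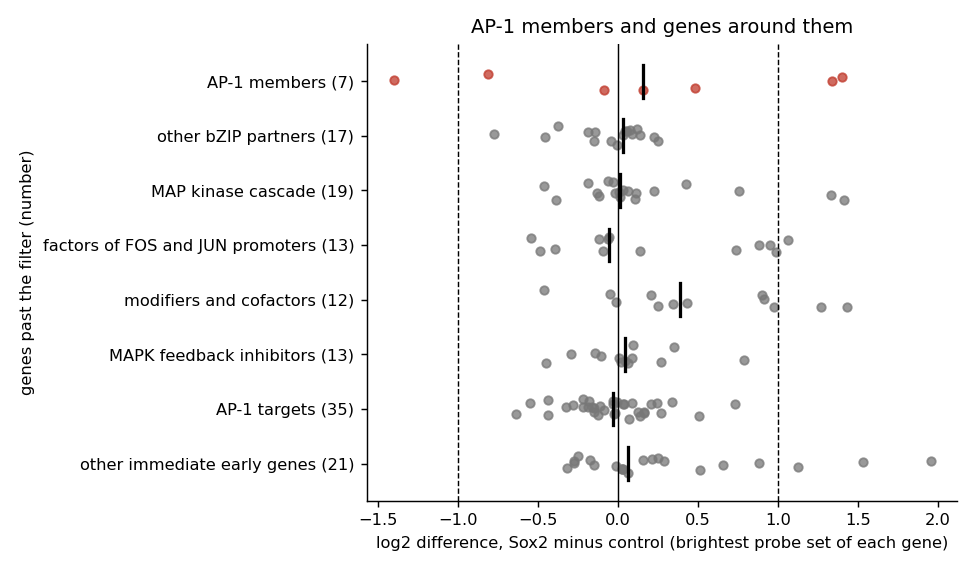
Log2 difference (Sox2 minus control) of the brightest probe set of each gene past the filter, for the AP-1 members (red) and for 7 lists of genes around them (grey), with the number of genes in brackets, black bars at the medians and dashed lines at 2-fold. The 7 AP-1 members run from -1.40 to 1.40, while the 35 AP-1 targets stay between -0.64 and 0.73.

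Other immediate early genes, which share signals with FOS and JUN, included single large differences. Of 21 past the filter 3 were at least 2-fold higher, none lower and 18 under 2-fold, against 2.05% higher and 0.645% lower over all genes, with 14 above 0, 7 below and a median log2 difference of 0.06. SGK1, a serum-induced kinase with 1 probe set, read 916 in the Sox2 array and 419 in the control array (2.19-fold, 1.13). SGK1 and KLF6 lie among the brightest 1426 genes, of which 10.8% were at least 2-fold higher. KLF6 differed by 0.09 to 1.53 over its 4 probe sets past the filter, all above 0, and EGR1 by 1.96 and -0.82 over its 2. On the control array the second EGR1 probe set was the brighter, at 140 against 65.6. The first led only through the Sox2 array, so the count of EGR1 as higher hangs on that choice. The orphan nuclear receptor NR4A2 read 198 in Sox2 and 108 in control (0.88), with 0.99 and 0.55 by its other 2 past the filter, the last of which passed only through the Sox2 array. Its relative NR4A3 read 59.9 in Sox2 and 38.0 in control (0.66), and KLF4 read 333 in Sox2 and 234 in control (0.51) and 44.4 in Sox2 and 44.5 in control (-0.0036). IER2, NR4A1 and CCN1 read 67.1 in Sox2 and 66.1 in control, 63.8 in Sox2 and 72.1 in control, and 152 in Sox2 and 149.5 in control by their brightest probe sets. These differed by less than the technical SD of 0.28.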

How the data were processed

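The values are deposited probe set intensities on a linear scale, 1 per probe set and array. The submitters' processing notes list RMA alone, while its version, settings and the step that set the linear scale were not given in the sources used here. Log2 was taken without further scaling (lowest deposited intensity 1). Genes come from the platform annotation, with symbols updated by gene ID through RefSeq's GRCh38.p14 table. The brightest probe set by mean log2 stood for a gene, which entered when the higher value reached 34.25, the median of both arrays (14253 of 19775 genes). A probe set can lead its gene through 1 array alone, so this choice is not free of the direction. With 1 array per group there is no test and no p-value, and genes were counted by a fixed size of 2-fold. Members and the 10 gene lists were chosen with earlier results of these data known. Named genes are the 8 members and, of each list, genes at 2-fold or the largest difference; other list genes were named after their values were seen. Genes without a named probe set were not analysed here. Counting and motif search were tested on simulated data. The number of arrays limits the precision. Alternatives covered the probe set choice, scaling (lowess span 0.3), a pseudocount of 16, filter and fold threshold. Python 3.11.15, numpy 2.4.6, pandas 2.3.3, SciPy 1.17.1, statsmodels 0.14.6 and matplotlib 3.10.9 were used.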

Additional observations from a re-analysis of the deposited data

How the results depend on the processing

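No paired analysis was possible because each group has 1 array. Of 69 recomputed differences of single genes, 14 were fixed because the gene has 1 probe set and 8 came from median centring, which moves all genes alike. Of the other 47, 32 moved by less than the technical SD of 0.28 and 15 by more. JUNB under spike-in scaling was the only one of the 69 to change sign. Averaging all probe sets gave 0.72 for JUN and -0.12 for FOSL2, and averaging those past the filter 0.75 and -0.75. Each left 1 member at least 2-fold higher and 0 lower. Over all genes, these averages counted 70 higher and 47 lower, and 154 and 54, against 292 and 92. Without probe sets ending in _s_at or _x_at JUN was 0.0073 and 1 member was at least 2-fold higher. Spike-in scaling, which shifts all values by 0.75, gave 2.09 for JUN, 0.66 for JUNB, -0.060 for JUND, 1.30 for FOS, 0.91 for FOSB, 2.15 for FOSL1, -0.65 for FOSL2 and 1.23 for ATF3, with 3 members at least 2-fold higher and 0 lower. It counted 99.9% of the called genes as higher, against 76.0%. A pseudocount of 16 gave 0.25 for FOS and 1.12 for FOSL1. At 1.5-fold 2 members were lower, and at 3-fold 0 were higher and 0 lower. Quantile normalization counted 214 genes higher and 116 lower, 64.8% higher. JUND without those probe sets, and FOS by probe sets past the filter, have no value. The cause of these shifts was not tested beyond their construction.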
